A study of Mus musculus with 8 samples.

Results

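The genes that encode the laminin chains, nidogens and perlecan of muscle were followed in skeletal muscle of obese mice treated with liraglutide or with saline. They were taken by name, 10 of the 22173 genes in the deposited table: the alpha chain genes Lama2, Lama4 and Lama5, the beta chain genes Lamb1 and Lamb2, the gamma chain genes Lamc1 and Lamc3, the nidogen genes Nid1 and Nid2, and the perlecan gene Hspg2. The liraglutide group consisted of diet-induced obese C57BL/6 mice, 24 weeks old, that were injected subcutaneously with liraglutide, an agonist of the GLP-1 receptor, at 0.2 mg/kg per day for 9 weeks. The group named model consisted of obese mice of the same strain and age that received saline. Diet-induced obesity was thus shared by both groups, and no lean animals were compared. Body weight and fat mass after treatment were not compared, so whether the groups were equally obese at sampling was not tested. Each group held 8 mice, of which 4 were sequenced, and every library carries its own animal code. The labels do not say which muscle was taken.

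Laminins are heterotrimers of 1 alpha, 1 beta and 1 gamma chain that polymerise into the sheet at the base of basement membranes. Nidogens bind the laminin gamma chain and the collagen IV network, and perlecan is a heparan sulfate proteoglycan that joins the same lattice. The alpha chain decides much of where a laminin is found: Lama2 encodes the chain of the muscle fibre and of peripheral nerve, whose loss causes a congenital muscular dystrophy, while Lama4 and Lama5 encode the chains of vessel walls, and Lama4 that of the sheath around fat cells. Muscle fibres hold laminin through dystroglycan and the integrin made of Itga7 and Itgb1.

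The depth was 17133476 to 18244579 counts for liraglutide libraries and 15033631 to 16622716 counts for model libraries, and 12963 genes had enough counts to be tested. The muscle fibre genes Acta1 (skeletal alpha-actin) and Ckm (muscle creatine kinase) were high in both groups: Acta1 stood at 23323 ± 732 FPKM in the liraglutide group and 20761 ± 533 FPKM in the model group, and Ckm at 17337 ± 923 FPKM in the liraglutide group and 14870 ± 82.2 FPKM in the model group (SD, n = 4). FPKM is the fragment count divided by gene length and library total, so that levels of different genes can be compared. Transcripts of other tissues set some libraries apart. Crisp1, an epididymis gene, had 2635 counts in liraglutide 2 and at most 143 in any other library. Alb, the albumin gene of liver, had 5757 counts in model 3 and at most 163 elsewhere. Gpx5, another epididymis gene, had 2 to 12 counts per liraglutide library and 168 to 449 per model library. Results were therefore also computed without liraglutide 2 and model 3, and what part the epididymis transcripts of the model libraries have in any result was not tested.

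Of the 10 genes, 4 fell with liraglutide: Nid1, Lama4, Lamb1 and Nid2, to between 0.61 and 0.74 of the model level. Lama2, Lamc1, Hspg2 and Lamc3 had negative log2 fold changes that did not pass, and Lama5 and Lamb2 had positive ones that did not pass. A gene passed where the quasi-likelihood test of edgeR gave a Benjamini-Hochberg adjusted p under 0.05 over all genes tested. Of all genes tested, 4.83% passed as lower and 5.45% as higher, 10.3% in either direction, so 4 of 10 lower stood against a background of 4.83% and 0 of 10 higher against 5.45%. At an unadjusted p under 0.05, 8 of the 10 were lower and 1, Lamb2, was higher, against 13.4% lower and 13.1% higher over all genes tested. DESeq2 called 5 of the 10 lower and 0 higher, against 5.48% lower and 6.33% higher over all genes. The median log2 fold change was -0.35 over the 10 genes and -0.01 over all genes tested. In FPKM, 8 of the 10 genes were lower in every liraglutide library than in every model library, as were 15.4% of all genes tested, and 0 of the 10 were higher in every liraglutide library (4.91% of all genes). With TMM-scaled CPM, a comparison added after seeing the data, 7 were lower without overlap (8.67% of all genes) and Lamb2 was higher without overlap (9.61%). In bulk tissue, fewer cells of a type and less RNA per cell cannot be told apart.

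**Figure D1:**
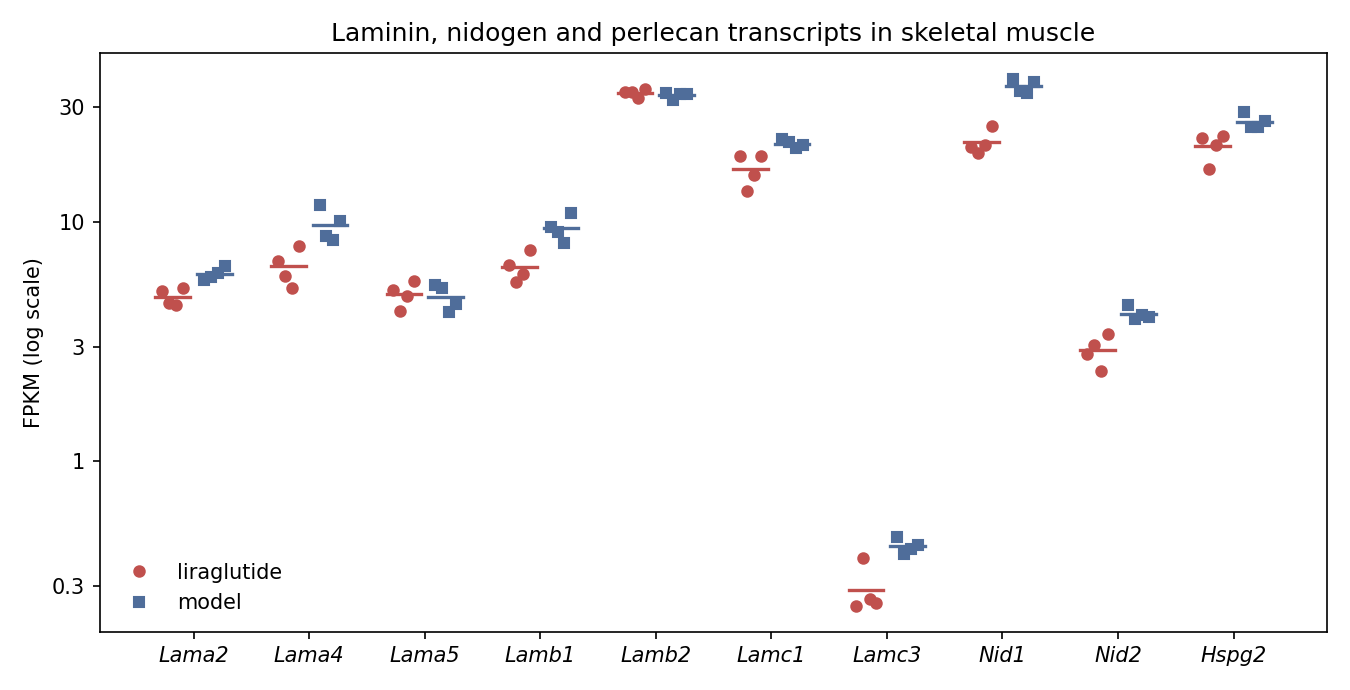
FPKM of the 10 genes on a log axis, 1 point per library with the group mean as a line, liraglutide (circles) left of model (squares). Nid1 stood at 19.3 to 25 FPKM in liraglutide libraries and 34.4 to 39.3 FPKM in model libraries, and the groups overlap for Lama5 and Lamb2 only.

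**Figure D2:**
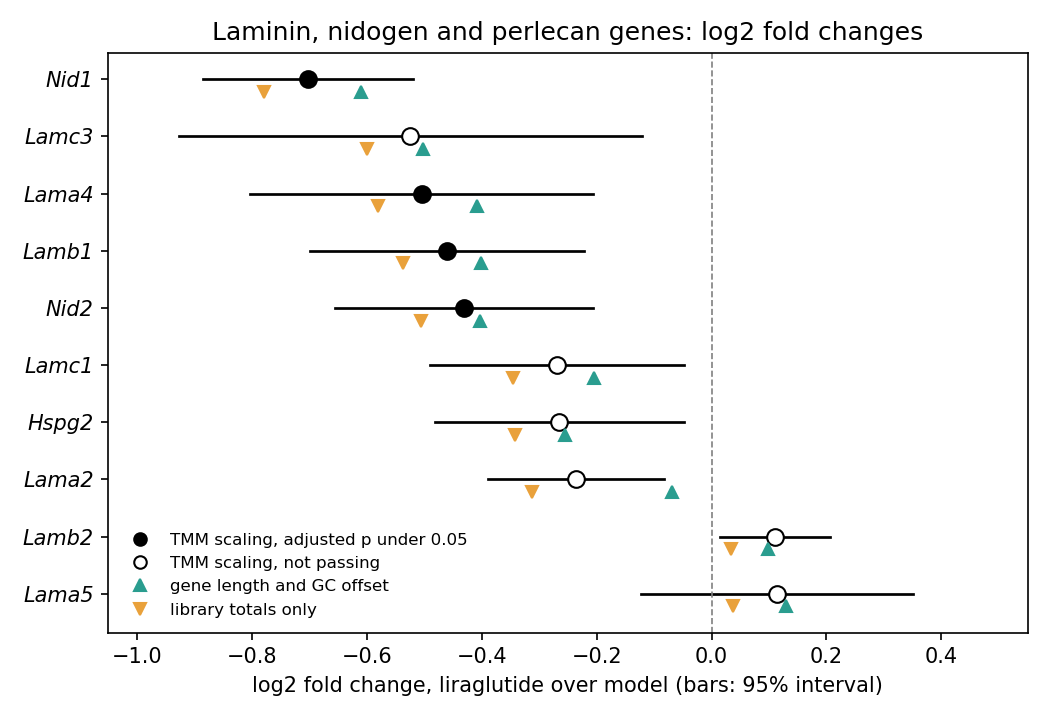
Log2 fold changes of the 10 genes, liraglutide over model, with 95% intervals; filled circles passed at an adjusted p under 0.05. Triangles give the value with a gene length and GC content offset (up) and with library totals alone (down), and all 10 genes have the same sign under all 3.

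Among the alpha chains, Lama4 fell and Lama2 and Lama5 did not pass. Lama4 (Entrez gene 16775) had 6.88, 5.92, 5.28 and 7.93 FPKM in liraglutide libraries 1 to 4 and 11.7, 8.7, 8.41 and 10 FPKM in model libraries 1 to 4. Model 1 was the highest, and the highest liraglutide library lay just under the lowest model library. The mean was 6.5 ± 1.15 FPKM in liraglutide muscle and 9.71 ± 1.51 FPKM in model muscle (SD, n = 4), and the log2 fold change was -0.50 ± 0.134 (SE, edgeR adjusted p = 0.0427). The call was lost on leaving out liraglutide 1, 2 or 3 or model 1, 2 or 4 (adjusted p as high as 0.109), without liraglutide 2 and model 3 together (0.0776), and with the gene length offset alone (0.0621) or with GC content (0.0825).

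Lama2 (Entrez gene 16773), the chain of the muscle fibre, had 5.13, 4.56, 4.49 and 5.29 FPKM in the liraglutide libraries and 5.68, 5.88, 6.08 and 6.52 FPKM in the model libraries. Every liraglutide library was below every model library, but the gap between the groups was narrow. The log2 fold change was -0.24 ± 0.0686 (SE, 95% interval -0.39 to -0.08, edgeR adjusted p = 0.058). Lama2 is 11896 bases long. Its log2 fold change was -0.11 (adjusted p = 0.336) with the gene length offset and -0.07 (0.564) with the length and GC offset. It passed with DESeq2 (0.0352), with library totals alone (0.0213), in limma (0.0405 and 0.0391 with a pseudocount of 1 and 0.1) and without liraglutide 4 (0.0447).

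Lama5 (Entrez gene 16776), of vessel and epithelial basement membranes, had 5.2, 4.22, 4.9 and 5.63 FPKM in the liraglutide libraries and 5.43, 5.27, 4.21 and 4.52 FPKM in the model libraries, and the groups overlapped over most of their range. Its log2 fold change was 0.11 (95% interval -0.12 to 0.35, edgeR adjusted p = 0.539) and it did not pass under any of the 19 alternatives. Measured per length, Lama4 was the highest alpha chain in all 8 libraries. It made up 39 ± 2.5% of the summed alpha chain FPKM in the liraglutide group and 46.2 ± 3.44% in the model group, while Lama5 made up 30.1 ± 2.07% in the liraglutide group and 23.2 ± 2.19% in the model group. Lama2 made up 29.5 ± 1.21% in the liraglutide group and 29 ± 3.12% in the model group (SD, n = 4). The shares of Lama4 and of Lama5 did not overlap between the groups, and that of Lama2 did. Shares of a sum depend on each other, so a lower share of Lama4 goes with a higher share of the other chains together. No share, here or for the beta chains, was tested.

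Of the beta chains, Lamb1 fell and Lamb2 did not pass, and the test of their ratio is given with the other ratios. Lamb1 (Entrez gene 16777), the beta chain of most laminins of the muscle fibre and of fat, had 6.6, 5.59, 6.05 and 7.62 FPKM in the liraglutide libraries and 9.47, 9.05, 8.18 and 10.8 FPKM in the model libraries, without overlap. Its log2 fold change was -0.46 ± 0.107 (SE, edgeR adjusted p = 0.025). The call held with the length and GC offset (0.0463) and without liraglutide 2 and model 3 (0.0329), and was lost on leaving out liraglutide 1 or 3 or model 1, 2 or 4 (as high as 0.0694).

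Lamb2 (Entrez gene 16779), the beta chain concentrated at the neuromuscular junction and in vessel walls, had 34.8, 34.6, 32.7 and 35.9 FPKM in the liraglutide libraries and 34.4, 32.2, 34.2 and 34 FPKM in the model libraries. It was the steadiest of the 10, with a coefficient of variation of 3.78% in the liraglutide group and 2.99% in the model group. Its log2 fold change was 0.11 (95% interval 0.02 to 0.21, edgeR adjusted p = 0.132), and it passed as higher with the gene length offset alone (log2 fold change 0.20, adjusted p = 0.0185) but not when GC content was added (0.228). Lamb2 exceeded Lamb1 in every library and made up 83.7 ± 1.42% of the summed beta chain FPKM in liraglutide muscle and 77.4 ± 2.11% in model muscle (SD, n = 4), with no overlap.

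**Figure D3:**
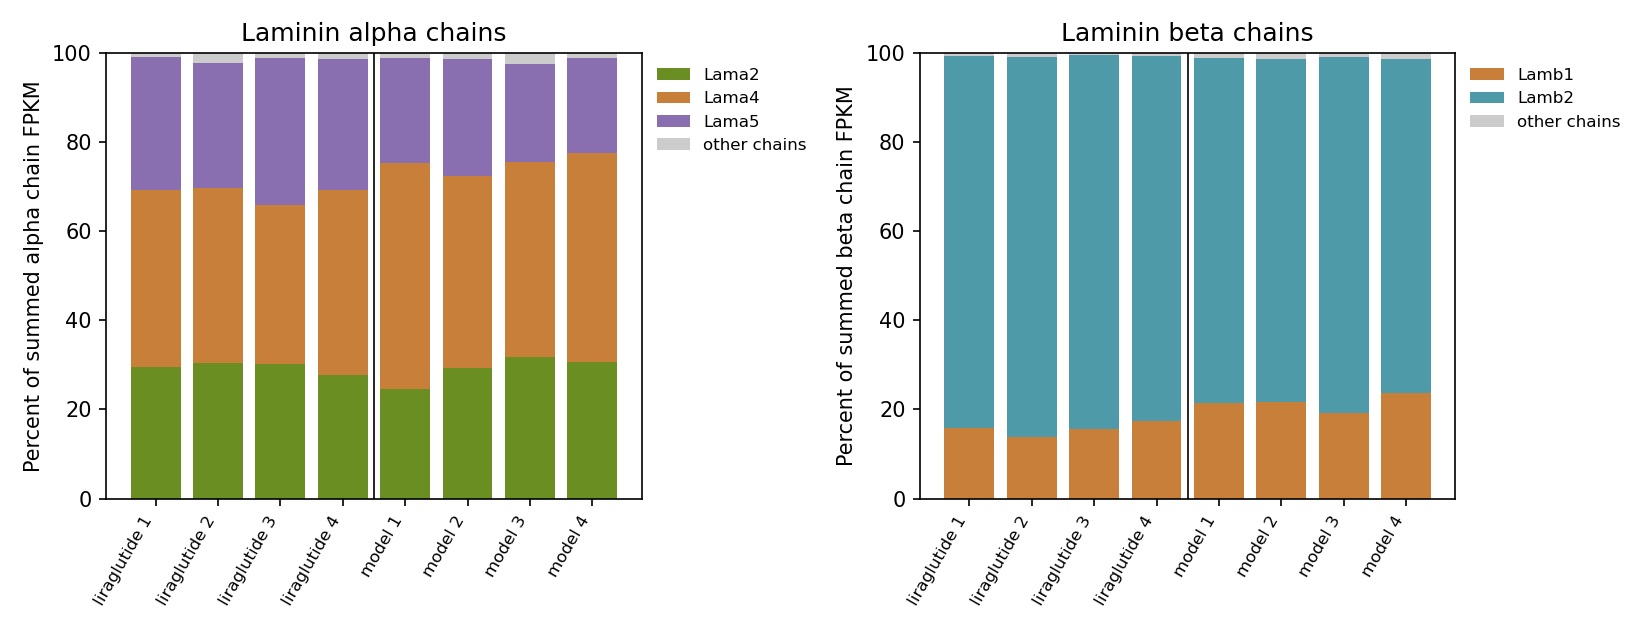
Share of each gene in the summed FPKM of the laminin alpha chains (Lama1 to Lama5, left) and beta chains (Lamb1 to Lamb3, right), 1 bar per library with liraglutide libraries left of model libraries. Lamb1 takes 13.8 to 17.4% of the beta chain sum in liraglutide libraries and 19.1 to 23.8% in model libraries.

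The promoters of both beta chain genes, of which Lamb1 passed and Lamb2 did not, and of Nid1, which had the largest fall of the 10, are shown from RefSeq (GRCm38.p6) as 300 bases, 250 before to 50 after the gene start, 5′ to 3′ on the gene's strand. Capitals mark GGGCGG, the GC box that Sp1 binds, on either strand. Lamb1 lies at chr12:31265043-31265342, Lamb2 at chr9:108479612-108479911 and Nid1 at chr13:13437352-13437651, all on the plus strand.
Lamb1: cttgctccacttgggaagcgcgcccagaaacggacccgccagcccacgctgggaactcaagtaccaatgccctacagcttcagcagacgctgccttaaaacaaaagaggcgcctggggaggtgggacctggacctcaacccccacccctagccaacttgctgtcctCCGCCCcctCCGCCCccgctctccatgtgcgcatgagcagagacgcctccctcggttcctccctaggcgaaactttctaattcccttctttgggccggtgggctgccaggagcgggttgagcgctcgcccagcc
Lamb2: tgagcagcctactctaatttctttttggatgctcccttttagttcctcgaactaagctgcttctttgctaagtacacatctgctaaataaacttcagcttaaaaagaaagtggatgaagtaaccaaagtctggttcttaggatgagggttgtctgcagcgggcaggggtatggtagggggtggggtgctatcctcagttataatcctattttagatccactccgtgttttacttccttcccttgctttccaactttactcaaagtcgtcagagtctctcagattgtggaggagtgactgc
Nid1: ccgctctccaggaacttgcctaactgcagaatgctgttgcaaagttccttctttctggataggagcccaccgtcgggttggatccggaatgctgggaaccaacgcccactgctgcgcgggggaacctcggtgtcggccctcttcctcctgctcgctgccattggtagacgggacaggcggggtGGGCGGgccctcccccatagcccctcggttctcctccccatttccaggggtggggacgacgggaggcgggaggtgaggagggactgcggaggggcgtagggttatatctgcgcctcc
Lamb1 had 2 matches, Nid1 had 1 and Lamb2 had 0, and the base composition differed, at 63.7%, 64.7% and 44% G and C in Lamb1, Nid1 and Lamb2. Of the 6 genes with a promoter in the table, 5 held the letters, with 4 matches in Lama5, 5 in Hspg2 and 1 in Lama2, against 35.7% of 32851 promoters of the same length. TATAAA, the TATA box, and TGANTCA, an AP-1 site, searched on both strands, were found in 0 of the 6, against 13.6% and 7.81% of all promoters. These matches describe letters only.

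Neither gamma chain passed. Lamc1 (Entrez gene 226519), the gamma chain of nearly all laminins of muscle, vessel and fat, had 18.7, 13.4, 15.7 and 18.7 FPKM in the liraglutide libraries and 22.1, 21.4, 20.3 and 20.8 FPKM in the model libraries. The groups did not overlap, and liraglutide 2 was the lowest. The spread was 15.4% of the mean in the liraglutide group and 3.63% in the model group, and the log2 fold change was -0.27 ± 0.0991 (SE, 95% interval -0.49 to -0.05, edgeR adjusted p = 0.118). Without liraglutide 2 the value was -0.17. With the gene length offset it was -0.16 (adjusted p = 0.273), and Lamc1 passed with library totals alone (0.0472).

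Lamc3 (Entrez gene 23928), a rare gamma chain, was the lowest of the 10 in every library. It had 0.25, 0.394, 0.267 and 0.255 FPKM in the liraglutide libraries, from 37, 61, 40 and 37 counts, and 0.484, 0.408, 0.429 and 0.447 FPKM in the model libraries, from 65, 52, 60 and 63 counts. Liraglutide 2 lay close to the model libraries and the other liraglutide libraries well below them. The log2 fold change was -0.52 ± 0.181 (SE, edgeR adjusted p = 0.098), and without liraglutide 2 it was -0.69 and passed (0.0321).

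Both nidogens fell. Nid1 (Entrez gene 18073), the main link between laminin and collagen IV, had 20.5, 19.3, 21 and 25 FPKM in the liraglutide libraries and 39.3, 35.1, 34.4 and 38.4 FPKM in the model libraries. The groups were far apart, with means of 21.4 ± 2.49 FPKM in liraglutide and 36.8 ± 2.39 FPKM in model muscle (SD, n = 4). Its log2 fold change was -0.70 ± 0.082 (SE, edgeR adjusted p = 0.00183), the largest of the 10, and it passed under all 19 alternatives, with log2 fold changes of -0.78 to -0.61. Nid1 was the highest of the 10 genes per length in every model library and ranked 2 or 3 in the liraglutide libraries, where Lamb2 ranked 1.

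Nid2 (Entrez gene 18074), its relative in vessel and muscle basement membranes, had 2.8, 3.04, 2.38 and 3.41 FPKM in the liraglutide libraries and 4.5, 3.94, 4.09 and 3.99 FPKM in the model libraries. The groups did not overlap and the log2 fold change was -0.43 ± 0.101 (SE, edgeR adjusted p = 0.0258). The call held with the length and GC offset (0.0387) and was lost on leaving out liraglutide 1 or 3 or any model library (as high as 0.0768), and without liraglutide 2 and model 3 together (0.0817).

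Hspg2 (Entrez gene 15530), whose product perlecan binds growth factors and dystroglycan, had 22.3, 16.6, 20.8 and 22.8 FPKM in the liraglutide libraries and 28.6, 24.9, 24.8 and 26.2 FPKM in the model libraries. The groups did not overlap, with liraglutide 2 again the lowest. The log2 fold change was -0.26 ± 0.0973 (SE, 95% interval -0.48 to -0.05, edgeR adjusted p = 0.117), and -0.16 without liraglutide 2. Hspg2 is the longest of the 10 at 14402 bases, and its log2 fold change was -0.13 (adjusted p = 0.347) with the gene length offset and -0.26 (0.103) with the length and GC offset. It passed with library totals alone (0.0437).

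Ratios within a library do not depend on how libraries are scaled against each other. They can still carry effects of gene length and GC content, and no ratio or chain share is given with those offsets. Of 5 ratios, that of Lamb2 to Lamb1 alone did not overlap between groups: it was 5.27, 6.2, 5.41 and 4.71 in the liraglutide libraries and 3.63, 3.56, 4.18 and 3.15 in the model libraries. The mean log2 ratio was 2.43 ± 0.162 in liraglutide and 1.85 ± 0.168 in model muscle (SD, n = 4), a difference of 0.57 (two-sided exact permutation p = 0.0286, the smallest that 4 against 4 can give, and 0.107 adjusted over the 5 ratios). The ratio was higher in liraglutide muscle for 4 of 4 libraries, but after adjustment it did not pass.

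The ratio of the vessel and fat chain Lama4 to the muscle fibre chain Lama2 was 1.34, 1.3, 1.18 and 1.5 in the liraglutide libraries and 2.06, 1.48, 1.38 and 1.54 in the model libraries. The ranges overlapped, and the log2 difference was -0.27 (exact permutation p = 0.0857, adjusted 0.107). Without model 1, the highest, it was -0.15. The ratio of Lama5 to Lama2 was 1.01, 0.925, 1.09 and 1.06 in the liraglutide libraries and 0.956, 0.895, 0.692 and 0.693 in the model libraries, a log2 difference of 0.35 (exact permutation p = 0.0571, adjusted 0.107). Lamc3 to Lamc1 and Nid1 to Nid2 differed by -0.27 each (exact permutation p = 0.314 and 0.0857, adjusted 0.314 and 0.107). None of the 5 ratios thus passed after adjustment.

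**Figure D4:**
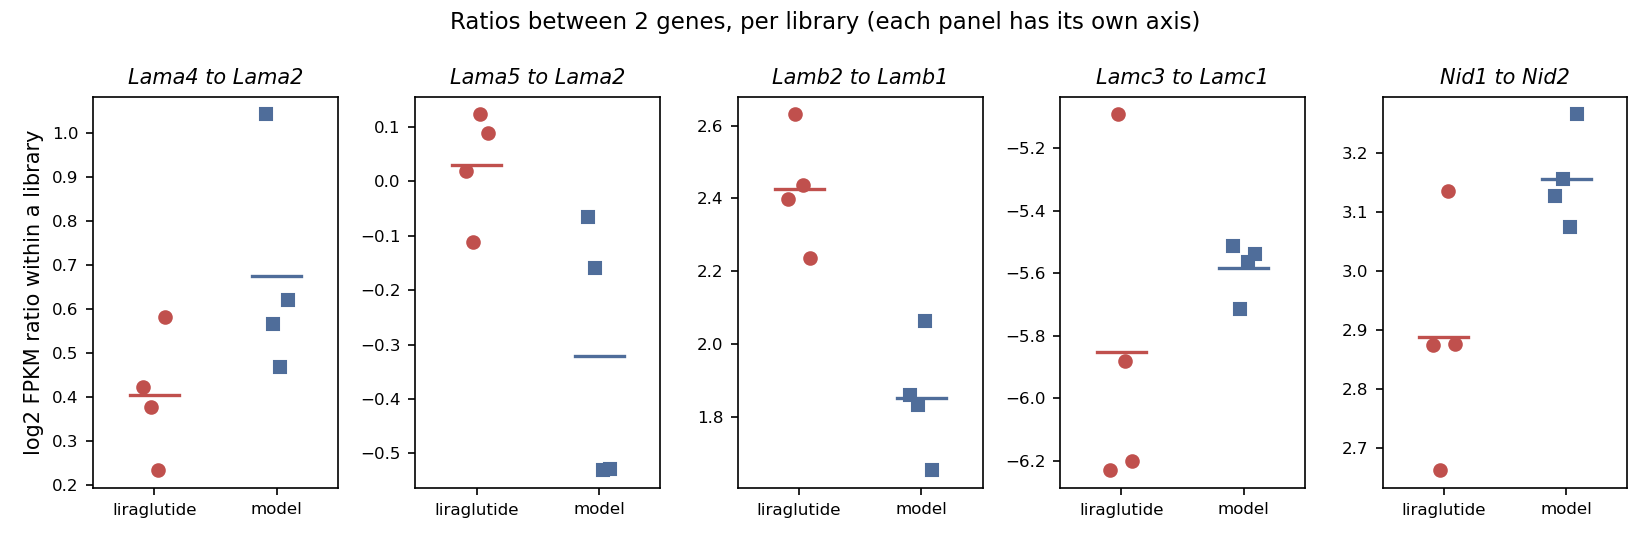
Log2 FPKM ratios of 5 gene pairs, 1 point per library with the group mean as a line, liraglutide left of model; each panel has its own axis. The Lamb2 to Lamb1 ratio is 2.24 to 2.63 in liraglutide libraries and 1.65 to 2.06 in model libraries, and the other 4 pairs overlap.

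Libraries of 1 group differed in the same direction for several of the 10 genes. Liraglutide 4 had the highest value of its group for 8 genes, and liraglutide 2 and liraglutide 3 had the lowest for 5 and 4. In the model group, model 1 was highest for 8 genes and model 3 lowest for 6. These counts are in FPKM. The matching shares over all genes tested are not given, so the counts are not read as particular to these genes. For 9 of the 10 genes the coefficient of variation was larger in the liraglutide group, as it was for 61.7% of all genes tested.

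The transcripts of the 10 genes are long, from 4884 bases (Nid2) to 14402 bases (Hspg2), against a median of 3595 bases over all genes tested, and all 10 are above that median. Their GC content ran from 47.7% (Lama2) to 60.9% (Hspg2). Over all genes tested, each library's log2 deviation from the mean of the libraries correlated with log gene length at r = -0.161 to 0.0159 in liraglutide libraries and 0.0249 to 0.15 in model libraries, and that with GC content was 0.127 to 0.159 in liraglutide libraries and -0.205 to -0.1 in model libraries. With the gene length offset, 3 of the 10 genes (Nid1, Lamb1 and Nid2) were called lower and Lamb2 was called higher. With the length and GC offset the same 3 were lower and 0 of the 10 were higher. Nid1 then had a log2 fold change of -0.61 (edgeR adjusted p = 0.00349), Lamb1 and Nid2 had -0.40 each, Lamc3 had -0.50 (0.159), Lamc1 had -0.20 (0.196) and Lama5 had 0.13 (0.418).

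The wider basement membrane list holds collagens, crosslinkers and matrix glycoproteins. Of 19 such components, 9 fell and 0 rose (0 also at an unadjusted p under 0.05 and in DESeq2), with a median log2 fold change of -0.48 beside -0.01 over all genes tested. Sparc, a collagen-binding glycoprotein and the gene with the smallest p, stood at 118 ± 20.8 FPKM in liraglutide and 250.4 ± 35.2 FPKM in model muscle (SD, n = 4; log2 fold change -1.01, edgeR adjusted p = 0.00246). Pxdn, a peroxidase that crosslinks collagen IV, fell by 0.60 on the log2 scale, and Col18a1, a collagen of vessel basement membranes, by 0.62. The other 6 called, named after their values were seen, were the collagen IV genes Col4a1, Col4a2, Col4a4 and Col4a5, the collagen gene Col15a1 and Smoc1. Without model 1 or model 4, 4 of the 19 were called, without model 2 there were 5, and without liraglutide 2 and model 3 there were 5. With the length and GC offset 6 were called, and Col4a4, Col4a5 and Smoc1 did not pass (edgeR adjusted p of 0.0575, 0.0591 and 0.0612).

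Laminin receptors and the enzymes that glycosylate dystroglycan mostly did not pass, as was so for all genes tested, of which 10.3% passed in either direction. Of 9 receptor genes 1 fell and 0 rose in edgeR, with 3 lower and 1 higher at an unadjusted p under 0.05 and 2 lower and 0 higher in DESeq2, and with a median log2 fold change of -0.05. Itga1, an integrin chain that binds collagen IV and laminin, stood at 2.98 ± 0.414 FPKM in liraglutide and 4.63 ± 0.793 FPKM in model muscle (log2 fold change -0.56, edgeR adjusted p = 0.0263), a call that was lost on leaving out liraglutide 3 or model 1, 2 or 4 (as high as 0.0632) and with the length and GC offset (0.0962). Bcam, a receptor for Lama5, had 18.7 ± 0.731 FPKM in liraglutide and 16.9 ± 1.48 FPKM in model muscle (log2 fold change 0.22, adjusted p = 0.0753), and Itga6, an integrin chain of vessels and nerve, had a log2 fold change of -0.46 (0.107). The receptors of the muscle fibre were named for their role after their values were seen. Dag1, the dystroglycan gene, had a log2 fold change of -0.05 ± 0.0474 (SE), and the integrin chain gene Itga7 had one of 0.01 ± 0.0749. Its partner Itgb1, which most cell types express, had 49.9 ± 3.94 FPKM in liraglutide and 58.6 ± 1.9 FPKM in model muscle (log2 fold change -0.15, 95% interval -0.28 to -0.02, edgeR adjusted p = 0.124).

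Of 13 genes for dystroglycan glycosylation, 12 were tested and 0 were called in either direction by edgeR or DESeq2, and 0 at an unadjusted p under 0.05, with a median of -0.02. Pomk and B4gat1, both among the 3 with the smallest p, had log2 fold changes of 0.21 and 0.13 (edgeR adjusted p of 0.207 and 0.226). Of the 4 other laminin chains, Lama1 was too low to be tested and 0 of the 3 tested were called by edgeR or DESeq2, with 1, Lamb3, lower at an unadjusted p under 0.05. Lamb3 and Lama3 had log2 fold changes of -0.89 and -0.38 (edgeR adjusted p of 0.0777 and 0.447).

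Markers of the cell types that lay down these membranes moved unequally. Of 9 adipocyte markers 7 fell and 0 rose in edgeR (8 lower and 0 higher in DESeq2 and at an unadjusted p under 0.05; median log2 fold change -0.79), and their counts summed to 935 to 1365 CPM in liraglutide libraries and 1548 to 2435 CPM in model libraries. Fabp4 and Adipoq were the highest of them. Cfd, the next highest and named after its values were seen, had a log2 fold change of 0.20 (edgeR adjusted p = 0.6). Fabp4 stood at 589 ± 94.8 FPKM in liraglutide and 990 ± 197 FPKM in model muscle, and Adipoq at 98.4 ± 21 FPKM in liraglutide and 192 ± 35.8 FPKM in model muscle (SD, n = 4). Fibro-adipogenic progenitors are interstitial cells that make matrix, and of their 8 markers 2 fell and 0 rose in edgeR (4 lower and 0 higher in DESeq2, 6 lower and 0 higher at an unadjusted p under 0.05; median -0.42), with 746 to 1201 CPM in liraglutide libraries and 1240 to 1274 CPM in model libraries. Dcn, the highest, stood at 247 ± 46.4 FPKM in liraglutide and 255 ± 9 FPKM in model muscle, and Dpt, the next, at 50.6 ± 7.84 FPKM in liraglutide and 79.7 ± 8.56 FPKM in model muscle.

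Vessel markers showed few calls, as did all genes tested, of which 4.83% were lower and 5.45% higher in edgeR. In DESeq2 these shares were 5.48% and 6.33%, and at an unadjusted p under 0.05 they were 13.4% and 13.1%. With lists this short, the few calls are not read as particular to vessel markers. Of 10 endothelial markers 0 passed in edgeR or DESeq2 in either direction, with 2 lower and 0 higher at an unadjusted p under 0.05 (median -0.12), with sums of 410 to 464 CPM in liraglutide libraries and 452 to 531 CPM in model libraries, and Pecam1 and Cldn5 were the highest. Of 9 pericyte and smooth muscle markers 1 fell and 0 rose in edgeR, in DESeq2 and at an unadjusted p under 0.05 (median 0.04). That gene was Rgs5, the highest of its list before Abcc9, at 41 ± 2.2 FPKM in liraglutide and 53.3 ± 3.11 FPKM in model muscle, and the sums were 799 to 932 CPM in liraglutide libraries and 912 to 1094 CPM in model libraries.

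In the nerve and muscle fibre lists, 0 genes fell in edgeR or DESeq2 and 0 were lower at an unadjusted p under 0.05. Over all genes tested, 4.83% were lower in edgeR, 5.48% in DESeq2 and 13.4% unadjusted. Of 6 Schwann cell markers (led by Pmp22) 0 rose by either tool or unadjusted, with 89.5 to 137 CPM in liraglutide libraries and 105 to 118 CPM in model libraries, and of 7 neuromuscular junction genes (led by Chrne and Ache) 0 rose by either tool or unadjusted, with 98.8 to 114 CPM in liraglutide libraries and 96 to 108 CPM in model libraries. Of 6 muscle fibre genes 4 rose (median 0.16), Ckm and Acta1 among them, with 133980 to 141030 CPM in liraglutide libraries and 127750 to 131010 CPM in model libraries. Ttn, named after its values were seen, was the 1 gene of that list with a negative log2 fold change (-0.17, edgeR adjusted p = 0.514). Of 6 epididymis markers 5 fell, and their counts summed to 8 to 2657 per liraglutide library, with the 2657 in liraglutide 2, and to 452 to 768 per model library. No marker of these lists was at 0 counts in all libraries. In CPM over library totals, the lower levels of Lama4, Lamb1, Nid1 and Nid2 stood beside lower adipocyte sums and higher muscle fibre sums, without overlap. Sums of fibro-adipogenic progenitor markers were also lower without overlap, but the gap was narrow. They reached 1201 CPM in liraglutide libraries and started at 1240 CPM in model libraries. The sums were not computed with the TMM scaling used for the calls, so whether that gap holds under it was not tested. Dcn, the highest progenitor marker, had a log2 fold change of 0.02. The part of any cell type in the lower levels of Lama4, Lamb1, Nid1 and Nid2 was not tested.

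**Figure D5:**
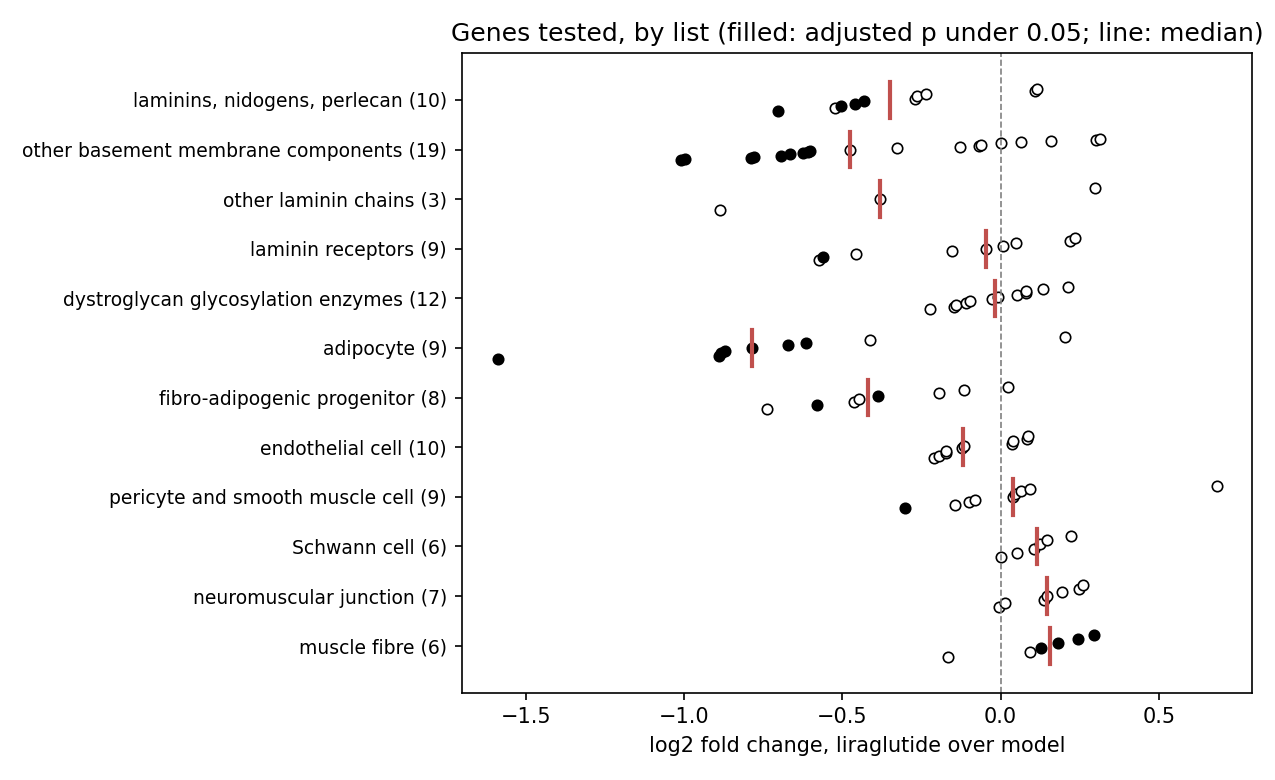
Log2 fold changes, liraglutide over model, of the 10 genes and of the genes tested in each list, with the number tested in brackets; filled points passed at an adjusted p under 0.05 and the line is the list median. The median is -0.79 for adipocyte markers, -0.35 for the 10 genes and -0.12 for endothelial markers; the epididymis list is not drawn.

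The genes whose profiles over the 8 libraries were closest to the 3 genes with the largest absolute log2 fold changes were found by the root mean square difference of centred log2(FPKM + 1) values among 10165 other genes with a mean of at least 1 FPKM. Closest to Nid1 were Cav1, the caveolin gene of fat and vessel cells, Psat1, an enzyme of serine synthesis, and Ywhab, a 14-3-3 adaptor, at 0.0676, 0.0802 and 0.0921 on the log2 scale, against a median of 0.383 over all these genes. Cav1 stood at 57.2 ± 7.11 FPKM in liraglutide and 98.6 ± 11.9 FPKM in model muscle (SD, n = 4). Psat1 stood at 1.99 ± 0.203 FPKM in liraglutide and 4.03 ± 0.529 FPKM in model muscle, low enough for the pseudocount of 1 to shrink its differences. Its edgeR log2 fold change was -0.94, against -0.70 for Nid1. Closest to Lama4 were S100a11, a calcium-binding protein gene, Ywhaq, another 14-3-3 gene, and Wwtr1, a transcriptional coactivator, at 0.0652, 0.0671 and 0.0691, against a median of 0.312. For Lamc3 they were Ino80c, Tbc1d19 and Rab11fip2 (0.022 to 0.0273), but at its level the added pseudocount of 1 flattens the profile.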

How the data were processed

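RNA from skeletal muscle of 8 mice, 4 per group, was extracted with TRIzol and sequenced from stranded libraries of polyadenylated RNA, per the labels' protocols. Raw counts and FPKM of each gene were deposited for every library in 1 table, per the file headers. Tools listed in the submitters' processing notes, with no version, are Trimmomatic, HTSeq, HISAT2, Cufflinks and DESeq; the build listed is the human GRCh38. Since 21979 of 22173 genes carried an Entrez identifier of the mouse RefSeq annotation, the build is uncertain and no coordinates are taken from the table. The authors' FPKM equalled count over library total and a whole-number gene length for 17484 of 17484 genes with a count (within 0.01 base). 1 column name misspells its group and was matched by the animal code it holds.

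Counts were tested with edgeR 4.0.16 (TMM, filterByExpr with a minimum count of 10, quasi-likelihood test, R 4.3.3), which left 12963 genes; the script was tested on simulated data. Library sizes were recomputed after the filter. The first run had kept the unfiltered sizes, and the recomputed ones were adopted after both sets of calls had been seen; the first version is given as an alternative. The common biological coefficient of variation was 13.7%. Log2 fold changes are liraglutide over model, and 95% intervals and SEs come from this fit. Ratios were compared by exact two-sided permutation over 70 assignments. GC content came from the GENCODE transcript nearest in length to each gene (12738 genes tested). The genes, lists and tests were chosen with earlier results of these data known. Of each pathway list the 3 genes with the smallest p were named, and of each cell type list the 2 with the highest mean FPKM; a few genes that this rule names are not reported here. Crisp1, Gpx5 and Alb, and other genes marked so, were named after their values were seen. Alternatives were DESeq2 1.42.0, limma 3.58.1 on log2(FPKM + 1) and log2(FPKM + 0.1), RLE factors, library totals, no filter, offsets for gene length and GC content (loess, span 0.5), a block for the replicate number, and each library left out in turn.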

Additional observations from a re-analysis of the deposited data

Results flagged for a closer look

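In groups of 4 libraries, a library was marked where its gap to the nearest other, as a share of the group's range, exceeded Dixon's 95% critical value. Of 46 groups examined 3 were marked, and chance alone marks about 1 in 20. Lamb2 stood at 32.2 FPKM in model 2 and at 34 to 34.4 FPKM in the other model libraries. Lamc3 stood at 0.394 FPKM in liraglutide 2 and at 0.25 to 0.267 FPKM in the other liraglutide libraries. The epididymis markers summed to 145.6 CPM in liraglutide 2, nearly all of it Crisp1, and to 0.452 to 1.89 CPM in the other liraglutide libraries.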

How the results depend on the processing

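The sign of the log2 fold change of each of the 10 genes was the same under all 19 alternatives. Nid1 passed under each of them, Lama5 under none. The number of the 10 called lower was 4, and it was 7 with library totals alone, 2 without liraglutide 2 and model 3, and 1 to 5 on leaving out single libraries (1 without liraglutide 1, liraglutide 3, model 1, model 2 or model 4); the number called higher was 0, and 1 with the gene length offset.

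Over all genes, 626 were called lower and 707 higher (53% of calls higher). With library totals alone these were 1241 and 338 (21.4% higher), in limma 1049 and 359 with a pseudocount of 1 (25.5%) and 1013 and 352 with 0.1 (25.8%), with the gene length offset 362 and 716 (66.4%), with the length and GC offset 263 and 328, and without liraglutide 2 and model 3 332 and 365. With library sizes kept as before the low-count filter, an alternative declared after both versions had been seen, 626 were lower and 708 higher, and 4 of the 10 genes were lower. Leaving out single libraries gave 271 to 569 lower and 344 to 662 higher. Genes lower without overlap numbered 1990 in FPKM and 1124 in TMM-scaled CPM, where 1 of the 10 was higher without overlap. The other basement membrane genes called lower were 9, with 4 to 8 on leaving out single libraries, 5 without liraglutide 2 and model 3, 6 with the length and GC offset, and 8 with the gene length offset or the replicate block. Receptors called lower were 1, with 2 in DESeq2, with library totals alone, in limma and with the replicate block, 0 with the length and GC offset, and 0 to 2 on leaving out single libraries. Of the other laminin chains, 1 was called lower in limma with a pseudocount of 1.

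The labels state no pairing of the numbered libraries, so the numbers were not taken as pairs. Deviations from the group means correlated across genes at 0.149, -0.0275, 0.143 and 0.0648 for same-numbered libraries. For differently numbered libraries of the 2 groups they correlated at -0.185 to 0.14. Whether the numbers mark pairs was not tested. With the replicate block 515 genes were called higher and 520 lower, and the same 4 of the 10 genes were lower. In a sign-flip test over same-numbered libraries, a form of the replicate block, the log2 difference of the Lamb2 to Lamb1 ratio was 0.57 (exact p = 0.125, the smallest possible). Without liraglutide 2 and model 3 it was 0.57 (exact p = 0.1, the smallest possible). With log2 of (FPKM + 1), the Lamc3 to Lamc1 difference was 0.18 in place of -0.27 and that of Nid1 to Nid2 -0.36 (exact permutation p = 0.0286). Leaving out single libraries gave differences of -0.34 to -0.15 for Lama4 to Lama2, 0.28 to 0.44 for Lama5 to Lama2, 0.50 to 0.64 for Lamb2 to Lamb1, -0.52 to -0.14 for Lamc3 to Lamc1 and -0.35 to -0.19 for Nid1 to Nid2. The causes of these differences were not tested. Lamc3 rests on 37 to 65 counts per library, which limits its precision.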
